A study of Mus musculus with 6 samples.

Results

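The genes described here are 9 regulators of the step from dividing progenitor to young neuron: the Notch effectors Hes1, Hes5 and Hey1, the proneural factors Neurog1 and Neurod1, their partners Hes6 and Insm1, and the paired factors Nhlh1 and Nhlh2 of newly formed neurons. They were chosen by name, as genes whose array row carried exactly 1 gene symbol; all 9 were measured, each by a single probe set, among 19937 genes. Their RNA was measured in the olfactory epithelium (septa and turbinates) of newborn (postnatal day 0) C57BL6 mice, in 3 samples from Atf5-/- pups and 3 from Atf5+/+ pups, born to intercrossed Atf5+/- parents. Each sample was a pool from 3 pups and was hybridised to 1 whole-transcript array. Levels are on a log2 scale, so a difference of 1 is a 2-fold difference, and levels of different genes are not comparable because each has its own probes. The part of Atf5 that the knockout allele lacks is not given in the sources used here.

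The olfactory epithelium makes neurons throughout life from globose basal cells at its base. In such progenitors a cell that makes the Notch ligand Delta activates Notch receptors on its neighbours. The receptor's inner domain then joins the DNA-binding protein Rbpj and switches on Hes and Hey genes, whose products repress proneural basic helix-loop-helix (bHLH) genes. Cells that escape this repression express Neurog1 and then Neurod1, leave the cell cycle, and pass through an Nhlh1-expressing stage before they become immature neurons with Gap43 and then mature neurons with olfactory marker protein. The order used below, from progenitor to nascent neuron, is this general scheme and was not derived from the arrays.

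Promoter windows are shown for 3 of these genes: Hes5, as a classical Notch target, and the paralogues Nhlh1 and Nhlh2, whose values differed in sign. Each runs from 250 bases before to 50 bases after the RefSeq transcription start, 5′ to 3′ on the gene's strand, in GRCm38.p6. In Hes5 (chr4:154960673-154960972, plus strand) capitals mark the core of the Rbpj motif, TGGGAA on either strand, and in Nhlh1 (chr1:172057547-172057846, minus strand) and Nhlh2 (chr3:102009895-102010194, plus strand) they mark the E-box, CANNTG, the motif that bHLH factors bind.
Hes5: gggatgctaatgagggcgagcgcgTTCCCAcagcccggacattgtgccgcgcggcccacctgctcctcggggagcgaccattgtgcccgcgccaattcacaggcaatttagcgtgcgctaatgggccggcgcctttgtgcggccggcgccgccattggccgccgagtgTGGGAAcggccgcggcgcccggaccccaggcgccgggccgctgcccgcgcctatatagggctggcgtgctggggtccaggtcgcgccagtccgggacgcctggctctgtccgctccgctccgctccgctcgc
Nhlh1: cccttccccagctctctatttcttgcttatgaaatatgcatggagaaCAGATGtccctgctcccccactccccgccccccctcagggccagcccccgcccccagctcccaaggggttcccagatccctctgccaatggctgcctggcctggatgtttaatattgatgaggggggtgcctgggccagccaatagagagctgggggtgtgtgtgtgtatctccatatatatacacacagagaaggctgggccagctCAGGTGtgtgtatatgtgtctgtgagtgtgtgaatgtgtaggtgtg
Nhlh2: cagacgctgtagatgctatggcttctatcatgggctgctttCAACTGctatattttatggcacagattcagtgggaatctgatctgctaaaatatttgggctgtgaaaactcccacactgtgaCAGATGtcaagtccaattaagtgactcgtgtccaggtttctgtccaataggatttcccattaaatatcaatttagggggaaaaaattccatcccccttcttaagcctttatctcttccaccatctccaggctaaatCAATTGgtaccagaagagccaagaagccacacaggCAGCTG

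The Hes5 window held 2 Rbpj cores, one on each strand. The Nhlh2 window also held 2, and the Nhlh1 window 1. Of 32851 promoter windows of this length, 3.79% held 2 or more cores on either strand. The Nhlh1 window held 2 E-boxes and the Nhlh2 window 4; 39.6% of windows held 2 or more. Windows were at hand for 6 of the 9 genes, and those of Hes1, Insm1 and Hey1 are named only. None of the 6 held the C/EBP-ATF composite motif TGANGCAA, searched on both strands because ATF4 and ATF5 are known to act through such elements. That motif was in 3.69% of all windows.

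Atf5, the targeted gene, was at 9.43, 9.44 and 9.50 in Atf5-/- arrays, against 10.54, 10.96 and 10.63 in Atf5+/+ arrays (log2 change -1.25, SE 0.10, adjusted p = 0.000499). Every Atf5-/- array was below every Atf5+/+ array. Across all genes 3.74% passed the test, a limma fit with Benjamini-Hochberg adjustment over 19937 genes at a threshold of 0.05, mostly as lower in Atf5-/- (645 lower, 100 higher). The labels number the replicates 1 to 3 in both genotypes, although no label says what a number shares. Deviations from the group means correlated between arrays of the same number, at 0.295, 0.122 and 0.234. A fit with this number as a block, which compares arrays of equal number, called 6.57% of genes. Its p-values take the numbers as true pairs, which these correlations do not establish.

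None of the 9 genes passed the test without the block, where 3.24% of all genes passed as lower and 0.502% as higher. With the block, Nhlh1 and Insm1 passed as lower in Atf5-/- epithelium and none passed as higher, where 4.46% of all genes passed as lower and 2.11% as higher. At an unadjusted p under 0.05, 2 of the 9 passed in the fit without the block (Nhlh1 and Insm1), against 16.1% of all genes. Genotypes did not overlap for Hes1 and Insm1, both with Atf5-/- below, where 21.1% of all genes did not overlap, 10.3% with Atf5-/- below and 10.8% with Atf5-/- above. The median log2 change of the 9 was 0.04, against 0.01 over all genes, and single changes ran from -0.52 to 0.21.

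**Figure D1:**
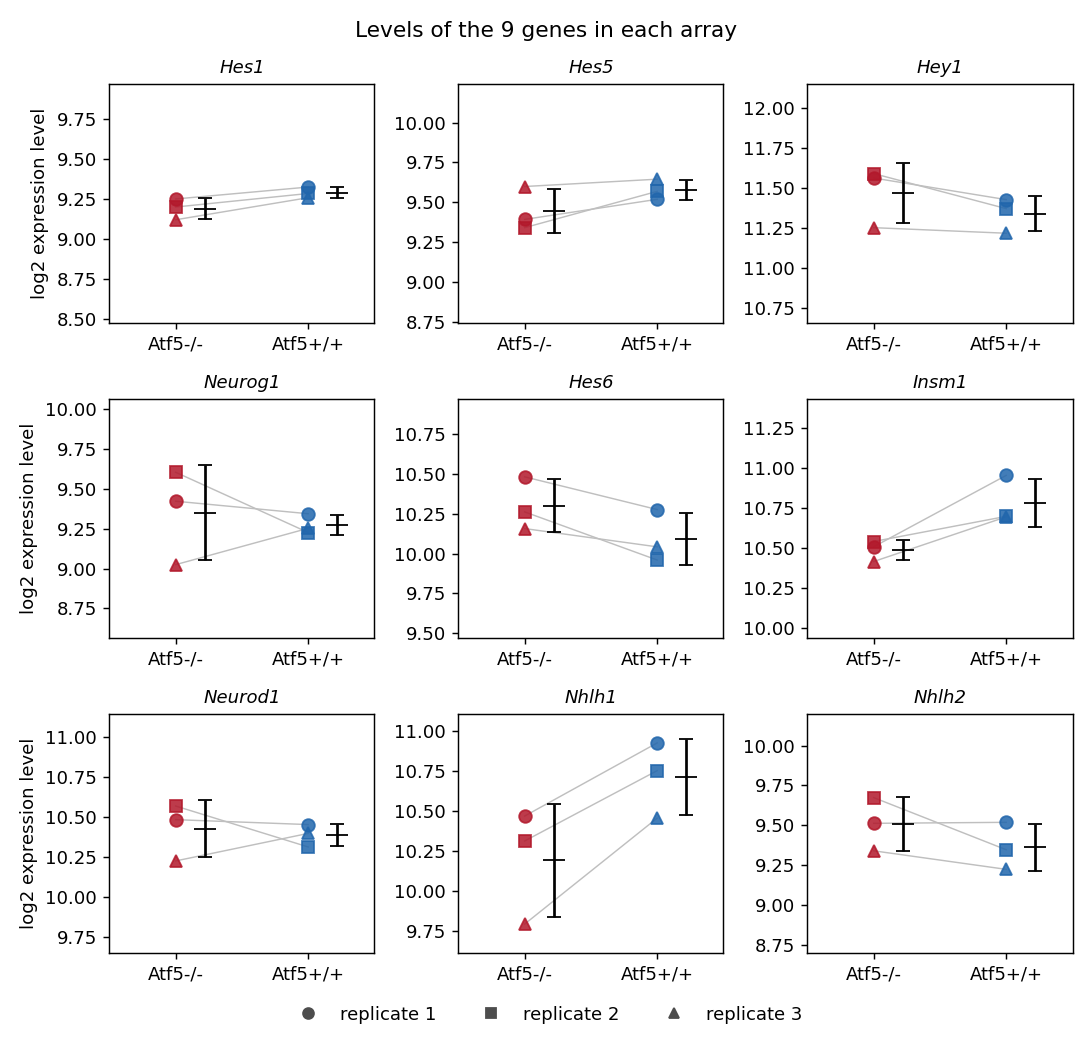
Log2 expression level (vertical axis, all panels spanning the same number of log2 units) of the 9 genes in each Atf5-/- array (red, left) and Atf5+/+ array (blue, right); marker shapes give the replicate number, grey lines join arrays of equal number, and black bars show the mean ± SD of 3 arrays. Nhlh1 is lower in Atf5-/- along all 3 lines, while the lines of Neurog1 and Neurod1 cross.

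None of the 3 Notch effectors passed in either fit, and their changes lay within -0.13 and 0.13. Hes1, a repressor that keeps progenitors undifferentiated and is also made in supporting cells, was at 9.25, 9.20 and 9.12 in Atf5-/- arrays, against 9.32, 9.28 and 9.26 in Atf5+/+ arrays. The genotypes did not overlap, but the closest arrays were 9.25 and 9.26. The log2 change of Hes1 was -0.10 (95% interval -0.24 to 0.04, adjusted p = 0.493).

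Hes5, the related repressor most closely tied to Notch signalling in neural progenitors, was at 9.39, 9.34 and 9.60 in Atf5-/- arrays, against 9.52, 9.57 and 9.65 in Atf5+/+ arrays. Atf5-/- replicate 3 lay within the Atf5+/+ values, and the log2 change of -0.13 had an interval of -0.31 to 0.05 (adjusted p = 0.469). Hey1, a Hes-related repressor that is also a Notch target in blood vessels, was at 11.56, 11.59 and 11.25 in Atf5-/- arrays, against 11.43, 11.37 and 11.22 in Atf5+/+ arrays, with overlap. The log2 change of Hey1 was 0.13 (-0.10 to 0.35, adjusted p = 0.597). Beside it, 10 of 12 endothelial markers had a change above 0, as had 10561 of all 19937 genes. None of the 12 passed, and 6 were at an unadjusted p under 0.05 by limma without the block, against 16.1% of all genes. The mean level of these markers was 9.95 to 10.01 in Atf5-/- arrays and 9.78 to 9.90 in Atf5+/+ arrays. Their part in the Hey1 value was not tested.

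Neurog1, the bHLH factor that commits olfactory progenitors to the neuronal fate, was at 9.42, 9.60 and 9.02 in Atf5-/- arrays, against 9.34, 9.23 and 9.25 in Atf5+/+ arrays. The 3 Atf5-/- arrays lay on both sides of the Atf5+/+ values, with an SD of 0.30 in Atf5-/- and 0.06 in Atf5+/+ arrays. Its level was 1.05-fold that of Atf5+/+ (95% interval 0.86 to 1.29, adjusted p = 0.838). Neurod1, which follows Neurog1 in the same lineage, was at 10.48, 10.57 and 10.22 in Atf5-/- arrays, against 10.45, 10.31 and 10.40 in Atf5+/+ arrays. Its ratio was 1.03 (0.89 to 1.19, adjusted p = 0.893), and the genotypes overlapped. Neither gene was called with the block (adjusted p = 0.744 for Neurog1 and 0.851 for Neurod1).

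The sign of both changes depended on 1 array. Without Atf5-/- replicate 2 the log2 change was -0.051 for Neurog1 and -0.033 for Neurod1, and without Atf5-/- replicate 3 it was 0.24 and 0.14, with no call in either setting.

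Hes6, a Hes family member that opposes Hes1 and favours neuronal differentiation, was at 10.48, 10.26 and 10.16 in Atf5-/- arrays, against 10.28, 9.96 and 10.04 in Atf5+/+ arrays. It had the highest log2 change of the 9 genes, 0.21 (-0.03 to 0.44, adjusted p = 0.378), with overlap between the genotypes. Every array of Atf5-/- was above the Atf5+/+ array of the same number, by 0.20, 0.30 and 0.11, but Hes6 did not pass with the block either (adjusted p = 0.102).

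Insm1, a zinc finger factor that moves progenitors towards terminal neurogenic division, was at 10.51, 10.54 and 10.41 in Atf5-/- arrays, against 10.95, 10.70 and 10.69 in Atf5+/+ arrays. Every Atf5-/- array was below every Atf5+/+ array. The level was 1.23-fold lower (1.08 to 1.40), a log2 change of -0.29 (SE 0.08, adjusted p = 0.102; 0.0466 with the block). Without both arrays of number 1 the blocked call of Insm1 ended, with a log2 change of -0.22 (adjusted p = 0.322).

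Nhlh1, a bHLH factor of newly formed neurons, had the largest change of the 9 genes. It was at 10.47, 10.31 and 9.79 in Atf5-/- arrays, against 10.93, 10.75 and 10.46 in Atf5+/+ arrays. Ranges overlapped by 1 array, since Atf5-/- replicate 1 was just above Atf5+/+ replicate 3, while every Atf5-/- array was below the Atf5+/+ array of its own number, with differences of -0.46, -0.44 and -0.66. The level was 1.43-fold lower (1.10 to 1.88), a log2 change of -0.52 (SE 0.17, adjusted p = 0.168 without the block). With the block the SE was 0.07 and the adjusted p was 0.00321. This blocked call was made again whichever number was left out (adjusted p from 0.000619 to 0.0155). Those fits were added after seeing the data and rest on few arrays. They called 451 to 1241 of all 19937 genes as lower. They also reuse arrays of the blocked fit, so the repeated call is not separate support for Nhlh1. Without the block, the change was -0.32 when Atf5-/- replicate 3 was left out, and no left-out array gave a call (adjusted p from 0.106 to 0.456). In such whole tissue, fewer cells of a type and less RNA per cell cannot be told apart.

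Nhlh2, the close paralogue of Nhlh1, known also from neurons that make gonadotropin-releasing hormone, was at 9.51, 9.67 and 9.34 in Atf5-/- arrays, against 9.52, 9.35 and 9.22 in Atf5+/+ arrays. The genotypes overlapped, and the log2 change of 0.15 (-0.08 to 0.37, adjusted p = 0.552; 0.319 with the block) had the opposite sign to that of Nhlh1. Within an array, the level of Nhlh1 minus that of Nhlh2 was 0.96, 0.64 and 0.45 in Atf5-/- arrays and 1.41, 1.41 and 1.23 in Atf5+/+ arrays. These values did not overlap between genotypes, and their means differed by -0.67, Atf5-/- minus Atf5+/+. A two-sided exact permutation test gave p = 0.1, the smallest that 3 against 3 arrays allow. Any values without overlap give this p, so the test adds nothing to the lack of overlap. It was 1 of 3 such pairs, chosen after their values were seen; Nhlh1 minus Neurog1 (-0.60) and Nhlh1 minus Neurod1 (-0.56) gave the same p, and after adjustment over the 3 pairs each was at 0.1.

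**Figure D2:**
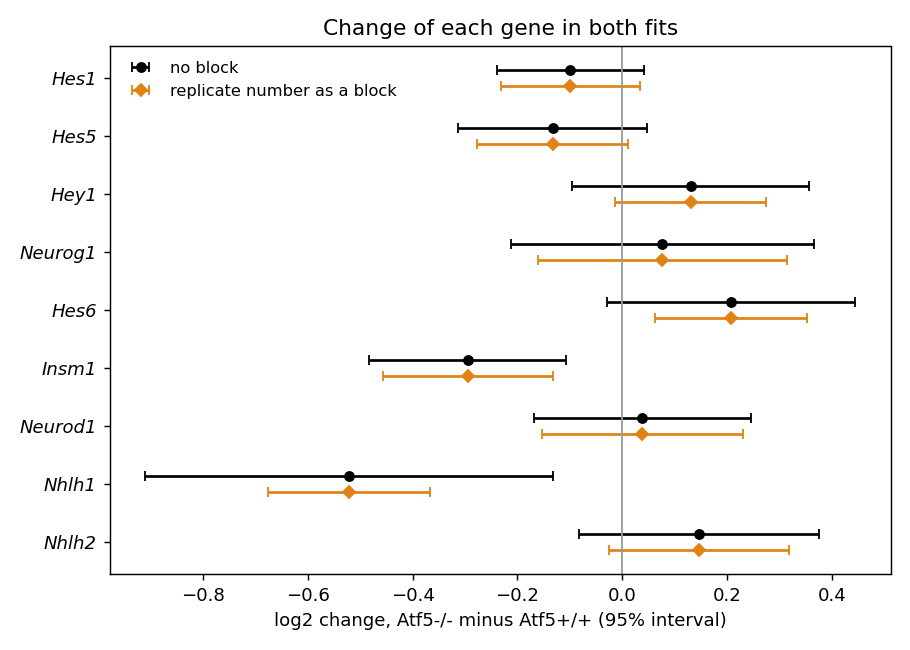
Log2 change of each gene, Atf5-/- minus Atf5+/+ (horizontal axis), with its 95% interval in the fit without a block (black circles) and with the replicate number as a block (orange diamonds); genes run from progenitor (top) to nascent neuron (bottom). The block cannot move the log2 change of any gene, because each number has an array of both genotypes. The interval of Nhlh1, at -0.52, narrows with the block, and the intervals of Neurog1 and Neurod1 hold 0 in both fits.

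Most of the 9 genes were lowest, or highest, in the same array of a genotype. Atf5-/- replicate 3 was the lowest Atf5-/- array for 8 of the 9, against 44.6% of all genes, and Hes5 was highest there. Atf5+/+ replicate 1 was the highest Atf5+/+ array for 8 of the 9, against 29.8% of all genes, and Hes5 was lowest there. Among Atf5+/+ arrays, the means of globose basal cell and cell division genes were highest in replicate 2. For globose basal cell genes, replicates 1 and 2 were close (10.89 and 10.90). Among Atf5-/- arrays, the globose basal cell mean was lowest in replicate 3, as for most of the 9, and the cell division mean in replicate 1. The order was not particular to the 9 genes. Means of immature neuron, mature neuron, sustentacular and vomeronasal neuron genes were also lowest in Atf5-/- replicate 3 and highest in Atf5+/+ replicate 1. Skeletal muscle markers ran the other way in these arrays: their mean level was 9.57, 9.71 and 9.89 in Atf5-/- arrays, highest in replicate 3, and 8.76, 9.68 and 9.57 in Atf5+/+ arrays, lowest in replicate 1. All 10 muscle markers had a change above 0; none passed without the block and 2 with it. Myh3, an embryonic myosin, had the lowest p of them (0.96, adjusted p = 0.205; 0.0438 with the block). The part of muscle in the values of the 9 genes was not tested.

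Some genes outside the list followed nearly the same course over the 6 arrays. After centring each gene on its own mean, the smallest mean absolute difference from Nhlh1 was that of Faim (0.07), followed by Gca and Scg3 (0.09 each). For Insm1 it was Olfr1126, an olfactory receptor gene, then Rnf185 and Cystm1 (0.02, 0.03 and 0.03). Of these 6, Faim (-0.56, adjusted p = 0.0462) and Cystm1 (-0.32, adjusted p = 0.0429) passed the test as lower in Atf5-/-. Leaving out any 1 array ended the call of Cystm1, and any but Atf5+/+ replicate 3 that of Faim (highest adjusted p = 0.158 and 0.173). Tbc1d30, Churc1 and Zfp763 were nearest to Neurog1, and Aldh1a2, Mir340 and Dipk2b to Hes6, with differences of 0.03 to 0.04. Olfr1126 was at -0.31 (adjusted p = 0.0554). Likeness over 6 arrays is a description only.

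Genes of earlier and later stages were set beside the 9. Of 8 measured globose basal cell genes, 1 of them Hes5, none passed, with a median log2 change of 0.12 and 2 at an unadjusted p under 0.05; the lowest p was that of Pax6, an eye and nose patterning factor (0.18, adjusted p = 0.226). Of 16 immature neuron genes, 3 fell and 13 did not pass, with a median of -0.11. A change below 0 was seen in 14 of the 16, as in 9376 of all 19937 genes. At an unadjusted p under 0.05 by limma without the block were 5, against 16.1% of all genes. Their mean level was 11.13 to 11.29 in Atf5-/- arrays and 11.34 to 11.45 in Atf5+/+ arrays. Dcx, which binds microtubules in migrating and young neurons, was 1.60-fold lower (adjusted p = 0.00248). Gng8, which encodes a gamma subunit of G proteins, changed by -0.45 (adjusted p = 0.0225) and Gap43, a growth cone protein, by -0.43 (adjusted p = 0.0134). Dcx passed with any 1 array left out. Gng8 and Gap43 did not pass without Atf5+/+ replicate 1 or Atf5+/+ replicate 2, nor Gap43 without Atf5-/- replicate 1 (adjusted p up to 0.1001 and 0.0620).

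Of 15 mature neuron genes, 14 fell and the median was -1.59. The exception was Cngb1, whose brightest probe set was at -0.21 (adjusted p = 0.274 by limma). Another of its probe sets was at -1.01 (adjusted p = 0.000158 by limma over all probe sets), while the remaining ones, at -0.01 and -0.10, did not pass. With the mean of probe sets per gene, 15 of the 15 passed as lower. Olfactory marker protein, Omp, was at 9.21, 9.06 and 9.07 in Atf5-/- arrays, against 11.63, 11.00 and 11.40 in Atf5+/+ arrays (log2 change -2.23, 95% interval -2.54 to -1.92). The lower bounds of the intervals of Neurog1 and Neurod1, -0.21 and -0.17, lie far above this interval, and that of Nhlh1 reaches -0.91. The difference between these changes was not tested otherwise. Transcripts of dividing cells were higher in part: 3 of 18 rose, Plk1, a mitotic kinase (0.57), Bub1b, a checkpoint kinase (0.30), and Mcm4, a replicative helicase subunit (0.29), all 18 had a change above 0, and 15 passed with the block. Without Atf5-/- replicate 2, 0 of the 18 passed by limma and 14 were at an unadjusted p under 0.05; Mcm4 did not pass whichever array was left out, and Bub1b passed only without Atf5-/- replicate 3.

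**Figure D3:**
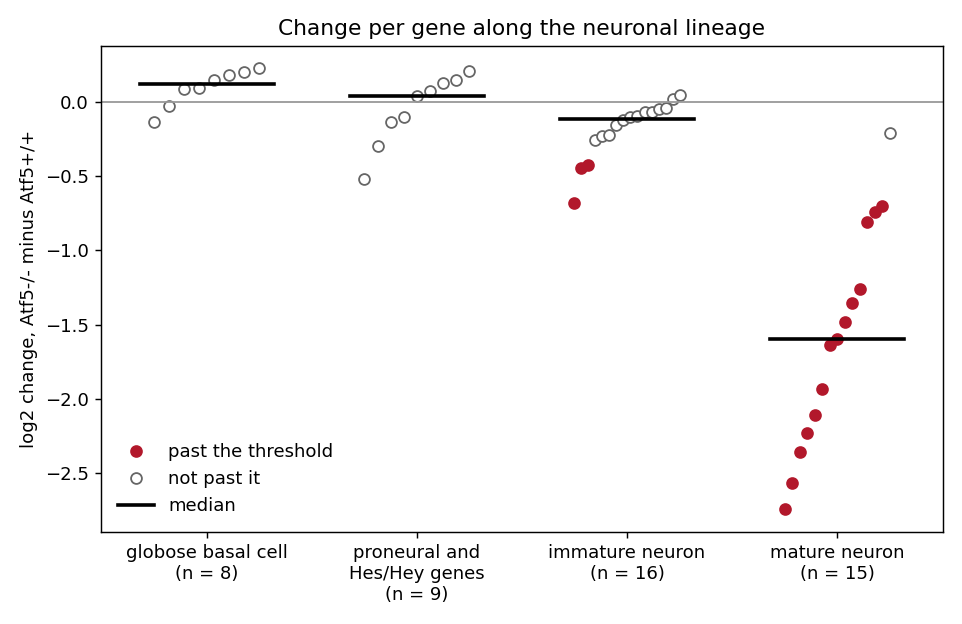
Log2 change, Atf5-/- minus Atf5+/+ (vertical axis), of each measured gene of 4 lists in lineage order; filled red points passed the limma test without the block, open points did not, and black lines are medians. The 9 proneural and Hes/Hey genes spread from -0.52 to 0.21 with no call, while 14 of 15 mature neuron genes are filled.

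Other genes of the Notch pathway covered ligands, receptors, processing and the nuclear complex, corepressors included. They gave no call by limma on all 6 arrays without the block, in 38 measured of 40 listed. Their median log2 change was 0.05, with 27 above 0 and 7 at an unadjusted p under 0.05. Among ligands, the Delta proteins Dll1 (0.07), Dll3 (0.01) and Dll4 (0.09) and the Jagged proteins Jag1 (0.08) and Jag2 (-0.03) had adjusted p values from 0.499 to 0.974. Dlk1, an imprinted Delta-like protein that lacks the domain other ligands use to activate Notch, was at 11.31, 11.43 and 11.52 in Atf5-/- arrays, against 10.55, 11.12 and 10.94 in Atf5+/+ arrays. Its genotypes did not overlap, and its change of 0.55 had an adjusted p of 0.0574 without the block and 0.00912 with it. Without the block, its adjusted p was 0.0476 when the prior was trended and robust, and 0.0255 without Atf5+/+ replicate 2.

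Among the receptors, Notch2, also found in supporting cells, was at 11.09 in each of the 3 Atf5-/- arrays, against 10.91, 10.81 and 10.91 in Atf5+/+ arrays, without overlap. It did not pass (0.21, SE 0.06, adjusted p = 0.0976; 0.0770 with the block). Notch1 (0.05), Notch3 (0.13) and Notch4 (0.10) did not pass either. Rbpj, the DNA-binding partner of the receptors, was at 10.90, 10.96 and 10.75 in Atf5-/- arrays, against 10.86, 10.96 and 10.75 in Atf5+/+ arrays (0.01, interval -0.16 to 0.19), with overlap.

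The lowest p among 16 genes of Notch processing was that of Lfng, a glycosyltransferase that tunes the response of Notch to its ligands (0.26, adjusted p = 0.0801; 0.0462 without Atf5-/- replicate 3). Among 12 genes of the nuclear complex it was that of Tle4, a Groucho-type corepressor that Hes proteins recruit (0.29, adjusted p = 0.116; 0.0384 with the block).

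**Figure D4:**
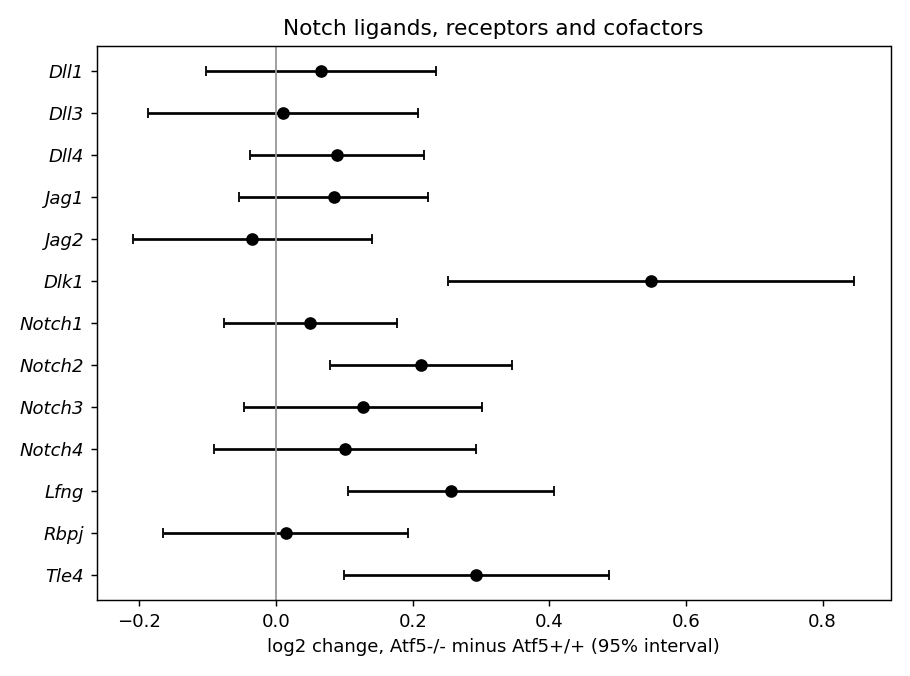
Log2 change, Atf5-/- minus Atf5+/+ (horizontal axis), with its 95% interval without the block, for Notch ligands, receptors, Lfng, Rbpj and Tle4. Dlk1 lies at 0.55 with the widest interval, and Rbpj at 0.01.

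Other bHLH genes gave no call by limma, with 3 of 30 at an unadjusted p under 0.05. None of 7 further Hes, Hey and Bhlhe genes passed (lowest p for Bhlhe41, 0.18, adjusted p = 0.273), none of 16 neural bHLH genes (Olig3, 0.15, adjusted p = 0.386), and none of 7 E proteins and Id inhibitors. E proteins are the dimer partners of proneural factors, and Id proteins bind and block them. Tcf3, an E protein, had the lowest p (0.18, adjusted p = 0.152), and its genotypes did not overlap. In a list of genes known as targets or partners of proneural factors and Insm1, 1 of 18 rose, 1 fell and 16 did not pass. Cdkn1c, a cyclin-dependent kinase inhibitor of cells leaving the cycle, rose to 10.95, 11.09 and 11.11 in Atf5-/- arrays, against 10.70, 10.77 and 10.77 in Atf5+/+ arrays (0.30, SE 0.07, adjusted p = 0.0407). Chga, a protein of secretory granules in neuroendocrine cells and neurons, fell to 10.64, 10.50 and 10.11 in Atf5-/- arrays, against 11.78, 11.39 and 11.57 in Atf5+/+ arrays (2.24-fold lower, adjusted p = 0.00236). The genotypes did not overlap for either gene. Chga passed with any 1 array left out, and Cdkn1c only without Atf5-/- replicate 1 (adjusted p from 0.0460 to 0.170).

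Among lists of neighbouring cell types, none of 9 sustentacular, 9 respiratory, 8 smooth muscle and pericyte, 10 cartilage and bone or 5 gonadotropin-releasing hormone neuron genes passed by limma without the block, with 5 of these 41 at an unadjusted p under 0.05. With the block 1 of them was lower, the sustentacular enzyme gene Cyp2g1 (-0.36, adjusted p = 0.0114). Of 7 vomeronasal neuron genes 1 fell, the G protein subunit Gnao1 (-0.39), a call lost without Atf5-/- replicate 1 or Atf5+/+ replicate 1 or 2, and 2 were lower with the block. Of 6 enamel genes 2 fell, Enam (-2.47) and Amelx (-1.98), and 5 of 6 left-out arrays ended the call of Enam and 4 of 6 that of Amelx; with the block 3 were lower. The enamel mean was 7.69 to 8.32 in Atf5-/- arrays and 8.54 to 9.90 in Atf5+/+ arrays. Among Atf5+/+ arrays it was highest in replicate 1, where 8 of the 9 genes, Insm1 and Nhlh1 included, were also highest. Among Atf5-/- arrays it was highest in replicate 3, where 8 of the 9, Insm1 and Nhlh1 included, were lowest. The part of tooth tissue in these values was not tested.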

How the data were processed

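RNA was measured on 6 1-colour arrays. Per the labels' protocols, cDNA came from the Ambion WT Expression Kit and was labelled with biotin. The tools named per the submitters' processing notes are RMA, affy and limma, with no version. The authors' deposited values were taken to be log2 levels per probe set, given their range (4.50 to 14.7); the base of the logarithm is not given in the sources used here. RMA as generally defined equalises array distributions, so a change shared by most genes is not visible.

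Rows with 1 symbol in the platform annotation were used (21640 of 34760), and the brightest probe set per gene, which left 19937 genes. Genotypes were compared by limma 3.58.1 in R 4.3.3 (no covariate, 2-sided, Benjamini-Hochberg over all genes, threshold 0.05). The 9 genes and all gene lists were chosen with earlier results of these data known. Named are Atf5, the 9 genes, Notch ligands, receptors and Rbpj, up to 4 called genes per list or the one with the lowest p, and the 3 genes most like each of the 9 whose range was at least 0.5. Same-numbered arrays correlated in their deviations at 0.295, 0.122 and 0.234, all above 0.1, and arrays of different number at -0.259 to 0.029. Deviations within a genotype sum to 0, so these correlations are not independent of each other. The numbers were therefore taken to pair samples, a reading from the data, since no label states what equal numbers have in common. The blocked fit uses the same values as this reading. Its p-values take the pairing as known, although it was not established apart from these values. Array medians were 8.67 to 8.72, no pair shared over 12 identical values, and the number of arrays limits precision. The labels call the samples biological replicates. In simulated data with 19937 genes of this comparison, 34% of 50 genes changed by 0.3 and 64% of 50 changed by 0.5 were called. Promoter windows are from RefSeq (GRCm38.p6). Alternatives were other normalizations, filters, probe set rules and priors, left-out arrays and the block.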

Additional observations from a re-analysis of the deposited data

How the results depend on the processing

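With the number of arrays given, changes of the size seen for most of the 9 genes would often be missed. Among the 9 genes, 0 were higher and 0 lower in every setting without the block, leaving out any 1 array included. At an unadjusted p under 0.05 by limma, 7 of the 9 passed without Atf5-/- replicate 3, and 2 with any other array left out. The share of all genes was not taken in those settings, so these counts of 7 and 2 show nothing particular to the 9 genes. With the replicate block 2 were lower, Nhlh1 (-0.52) and Insm1 (-0.29). In settings added after seeing the data, the block gave 2 lower on quantile-normalized arrays and 1 to 2 with both arrays of a number left out. With 1 array left out, changes ran from -0.051 to 0.24 for Neurog1 and from -0.033 to 0.14 for Neurod1, turning negative without Atf5-/- replicate 2; with the block and number 2 left out they were -0.075 and -0.071. Atf5 ran from -1.34 to -1.12 and kept its call in every setting.

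Genes called higher numbered 100 without the block and 421 with it; 60 with the filter at the median level, 345 with the block after quantile normalization, 27 to 127 with 1 array left out, and 89, 202 and 906 with the block and number 1, 2 or 3 left out. Genes called lower numbered 645 without the block and 889 with it; 358 and 226 with filters at the 30th percentile and the median, which test fewer genes, 383 to 584 with 1 array left out, and 451 to 1241 with the block and 1 number left out. Elsewhere the cause was not tested. Each of the 9 genes has 1 probe set, so the probe set rules changed only the adjustment. All 6 arrays entered the fit of every gene, and no value was imputed.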
